A study of Mus musculus with 2 samples.

Results

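Aminoacyl-tRNA synthetases, the enzymes that load each tRNA with its amino acid, were followed in tibialis anterior muscle with and without an activated Notch2 transgene. The group held the 36 genes whose name in the scanner files was on a fixed list, 20 for the enzymes of the cytosol and 16, with names ending in 2, for those imported into mitochondria. They were 36 of 27356 gene names on the array. The rule reads names alone, the list was drawn up with earlier results of these data known, and all 36 names were found. A gene counted as measured when a probe for it was well above background on both arrays. This held for 33 of the 36, namely 19 cytosolic and 14 mitochondrial enzymes, among 13626 genes measured in all.

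The study set 1 control array beside 1 array of N2ICD-mTG muscle, which carried activated Notch2 (N2ICD) as a transgene. Both muscles came from adult male C57BL/6 mice, a standard inbred strain, and the control is labelled only as control. The comparison asked how the N2ICD muscle differed from the control muscle. The labels do not name the promoter that drives the transgene, nor whether several animals were pooled. Genotype, animal, dissection and array cannot be told apart with 1 array per group, so no test was possible and no p-value was computed.

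Each amino acid has its own synthetase, and protein synthesis in the cytosol and in mitochondria draws on largely separate sets encoded by separate nuclear genes. Eprs charges both glutamate and proline tRNAs, phenylalanine needs the partner subunits Farsa and Farsb, and Gars and Kars are known to serve both compartments. Several cytosolic enzymes sit together in the multi-synthetase complex on the scaffold proteins Aimp1, Aimp2 and Eef1e1. The cytosolic genes include known targets of the transcription factor Atf4 in the amino acid response, and mitochondrial synthetases feed the translation of respiratory chain subunits, which slow and fast fibres need in different amounts.

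Leaving out control spots, 59305 spots remained; 24916 in the control muscle and 24982 in the N2ICD muscle were well above background, and 0 were saturated. Signals are processed intensities, which ran somewhat higher on the N2ICD array, with a 75th percentile of 190 against 169 in control. Differences are therefore log2 values, N2ICD minus control, after each array was scaled to that percentile. Spots of one probe differed with an SD of 0.14 on this scale over 244 probes printed several times. Among 4 groups by level it ran from 0.25 (dimmest) to 0.05 (brightest). This SD is spot noise and holds nothing of the spread between animals. Every synthetase probe was printed once. The transgene was visible in 1 of 2 Notch2 probes, with signals of 6.01 in control, not well above background, and 221 in N2ICD, at least 7.72-fold higher, while the probe nearer the 3′ end had 189 and 179. All 12 skeletal muscle fibre markers were well above background in both muscles. Their median difference was -0.21, with 9 of 12 below 0, from the muscle creatine kinase Ckm at -0.52 to the fast oxidative myosin Myh2 at 1.30, and the part of fibre type in the synthetase values was not tested. In bulk tissue, fewer cells of a type and less RNA per cell cannot be told apart.

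Scaled to the 75th percentile, synthetase transcripts were close to equal in both muscles. Of the 33 measured genes, 0 passed 1.5-fold upwards and 1, the mitochondrial tryptophan enzyme Wars2, passed it downwards. Scaled to the spike-in probes, 9 passed it upwards and 0 downwards, and 32 of the 33 were above 0. On that scale the median of all 13626 genes was 0.48 and 92.4% of them were above 0. Of these 13626, 4771 passed 1.5-fold upwards and 100 downwards. On the 75th percentile scale, 9.87% of all 13626 genes lay past 1.5-fold, 5.06% higher and 4.81% lower. Past 2-fold there were 0 synthetases and 2.31% of all genes, 1.42% higher and 0.888% lower. Past 1.2-fold there were 3 synthetases, 1 higher and 2 lower, and 36.5% of all genes, 18.0% higher and 18.6% lower. The share of all genes past 1.5-fold depended on level, from 16.6% in the dimmest group to 5.06% in the brightest, and 15 of the 33 synthetases were in the brightest group and 3 in the dimmest. The middle 50% of the synthetases spanned 0.20 on the log2 scale, against 0.38 for all genes. Their median was 0.01, as was that of all genes. There were 19 above 0 and 14 below, next to 50.7% of all genes above 0. The difference exceeded 2 SD of the spot noise at its level in 9 of the 33, 7 higher and 2 lower, while 47.6% of all genes did so, 25.6% higher and 22.0% lower.

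**Figure D1:**
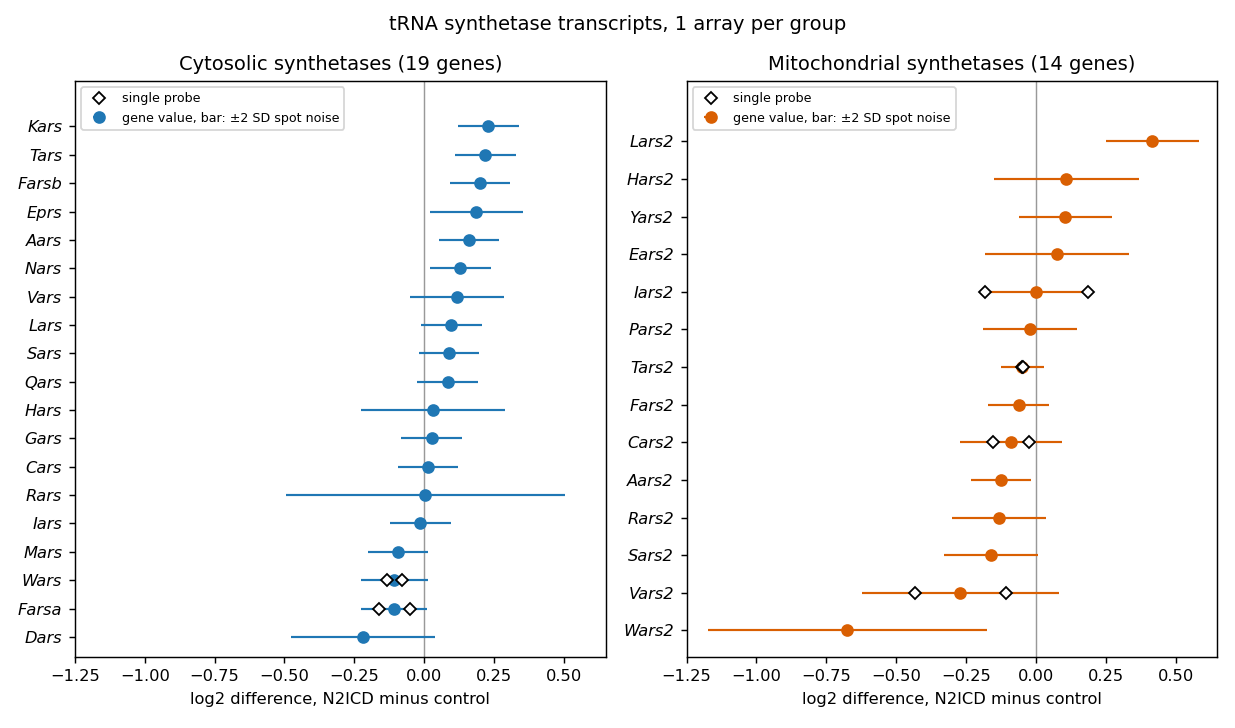
Log2 difference, N2ICD minus control, for the 19 cytosolic (left) and 14 mitochondrial (right) synthetases measured on both arrays, 1 array per group. Circles are gene values, bars are 2 SD of spot noise at the gene's level, and open diamonds are the separate probes of genes read by 2 probes; values run from -0.22 for Dars to 0.23 for Kars on the left and from -0.68 for Wars2 to 0.42 for Lars2 on the right.

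The cytosolic enzymes leaned slightly upwards in the N2ICD muscle. Of 19 measured, 14 were above 0 and 5 below, next to 50.7% of all genes above 0. Their median was 0.08, a 1.06-fold difference. Past 2 SD of spot noise were 6, all of them higher, next to 25.6% of all genes higher and 22.0% lower. Of the 19, 12 were in the brightest level group, where the spot noise is smallest and the median of all genes was 0.04. After quantile normalization 12 of the 19 were above 0, with a median of 0.02, and after loess also 12, with 0.05. Scaled to the spike-in probes, the median was 0.56 and all 19 were above 0, next to 92.4% of all genes. On the 75th percentile scale none of the 19 reached 1.2-fold in either direction, and Kars came nearest.

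Kars, the lysine enzyme, gave 11195 in the control and 14798 in the N2ICD muscle, a log2 difference of 0.23 or 1.17-fold. Its probe lies at mm9 chr8:114517440-114517499. Tars, the threonine enzyme, had 1311 and 1719, a difference of 0.22. Farsb, the beta subunit of the phenylalanine enzyme, had 1728 and 2236, a difference of 0.20. These gaps were small but larger than 2 SD of the noise between spots of that brightness. Eprs, the double enzyme for glutamate and proline, had 820 and 1052, a difference of 0.19. Aars, the alanine enzyme, had 5467 and 6883, a difference of 0.16, and its other probe was not well above background in either muscle. Nars, the asparagine enzyme, had 1322 and 1629, a difference of 0.13. With these, the cytosolic genes past 2 SD are complete.

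At the other end, Dars, the aspartate enzyme, gave 254 in the control and 246 in the N2ICD muscle, a difference of -0.22 that stayed within 2 SD of spot noise at its lower level. Farsa, the alpha subunit of the phenylalanine enzyme, had a difference of -0.11, the mean of a probe at -0.16 and one at -0.05, the latter with signals of 1016 and 1105. Wars, the tryptophan enzyme, which interferon is known to induce, also had -0.11, from probes at -0.13, with 202 and 207, and at -0.08. Its brighter probe had signals of 4542 and 4841, so the lower scaled value came with a slightly higher raw signal. Mars, the methionine enzyme, had 1371 and 1447, a difference of -0.09. The rest were even closer: Vars 0.12, Lars 0.10, Sars 0.09 (7856 and 9412), Qars 0.08, Hars and Gars 0.03, Cars 0.01, Rars 0.00 and Iars -0.01. Gars, with signals of 18113 and 20792, was nearly level although Kars, the other enzyme serving both compartments, stood higher. Yars, the tyrosine enzyme, had signals of 23.0 and 26.1 and was not well above background in either muscle.

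Farsa and Farsb form 1 enzyme, yet their transcripts differed in sign. The signs depend on the scale. With median scaling they stayed opposite, at -0.04 for Farsa and 0.27 for Farsb. On the spike-in scale both were positive, at 0.37 and 0.68. Farsb minus Farsa was 0.31, against 0.16 for 2 SD of spot noise. Spot noise leaves out the disagreement between different probes, which had an SD of 0.25 within genes. Another Farsa probe gave another picture. It was placed on a different transcript model of the gene, at mm9 chr8:87390408-87390467 on the plus strand, and had a signal of 54.5 in N2ICD against 19.7 in control, where it was not well above background, at least 1.90-fold higher. The regular Farsa probe below joins stretches apart in the genome, since its 60 bases span 161 bases at chr8:87391534-87391694, and so reads spliced RNA. They are shown to set apart the sequence read by each, the first 30 bases for the probe on the other transcript model and all 60 for the spliced one, 5′ to 3′ from the scanner files.
Farsa, other transcript model: tcctcctgaatgctaagatggctgttacca
Farsa, spliced: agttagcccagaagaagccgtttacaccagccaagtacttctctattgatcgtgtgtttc
The spliced probe had signals of 289 and 290, a difference of -0.16. Both regular Farsa probes were below 0 and the one on the other model was higher in N2ICD than in control. With probes well above background on at least 1 array let in, the Farsa value was 0.36.

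Enzymes inside and outside the multi-synthetase complex covered overlapping ranges. The 8 measured (Dars, Eprs, Iars, Kars, Lars, Mars, Qars and Rars) had a median of 0.04, with 5 above 0, and the 11 measured cytosolic enzymes outside it had 0.09, with 9 above 0. The scaffold was less even. Aimp2 gave 42998 in the control and 26296 in the N2ICD muscle, a difference of -0.88 or 1.84-fold lower, from 1 probe at mm9 chr5:144663574-144663633. Aimp1 had 4619 and 6385, a difference of 0.29, and Eef1e1 had 517 and 572, a difference of -0.03. Aimp2 was thus past 1.5-fold while the 8 enzymes of the complex lay between -0.22 and 0.23. By catalytic class, the 8 measured class I cytosolic enzymes had a median of 0.01, from -0.11 to 0.12, and the 10 class II enzymes 0.11, with 8 above 0. All cytosolic genes past 2 SD were class II, apart from Eprs, which holds a domain of each class.

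The mitochondrial enzymes leaned slightly downwards and held both extremes. Of 14 measured, 5 were above 0 and 9 below, next to 50.7% of all genes above 0. Past 2 SD of spot noise were 1 upwards and 2 downwards, next to 25.6% of all genes higher and 22.0% lower. The median of the 14 was -0.05, which became 0.01 when arrays were scaled to their medians and 0.42 when scaled to the spike-in probes. On those 2 scales the median of all genes was 0.07 and 0.48.

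Lars2, the leucine enzyme of mitochondria, was the highest of all 33. Its signal was 600 in control and 902 in N2ICD, a difference of 0.42 or 1.34-fold. It was the only synthetase past 1.2-fold upwards. Wars2, the tryptophan enzyme, was the lowest. Its probe at position 3271 of the transcript gave 139 in the control and 98.3 in the N2ICD muscle, a difference of -0.68 or 1.60-fold lower. A second Wars2 probe, at position 440, had 33.5 in control and 16.5 in N2ICD, where it was not well above background, at least 1.39-fold lower. Both Wars2 probes were therefore dimmer on the N2ICD array. The Wars2 probes lie at mm9 chr3:99009150-99009209 and chr3:99023010-99023069 and the Lars2 probe at chr9:123371457-123371516, all on the plus strand. Their sequences follow because the highest and the lowest value rest on them, 60 bases for the probe at position 440 and the first 30 for the others.
Wars2, position 440: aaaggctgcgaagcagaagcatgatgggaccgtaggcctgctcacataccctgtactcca
Wars2, position 3271: tctattaggaatactgggaattgtatctac
Lars2, position 3555: ctttaagcttgatactgtgcctggtctcaa
Wars2 kept its sign under all 12 alternative settings, from -0.93 with dimmer probes let in to -0.20 on the spike-in scale. After normexp background correction it was -0.47, no longer past 1.5-fold.

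Vars2, the valine enzyme, followed at -0.27, the mean of -0.43 and -0.11 in 2 probes with signals of 61.1 and 51.0 and of 155 and 162. Both probes were below 0, and the mean stayed within 2 SD of spot noise. Sars2 had 627 and 633, a difference of -0.16, and Rars2 629 and 647, a difference of -0.13. Aars2, the alanine enzyme, had 1068 and 1103, a difference of -0.13, and was the other gene past 2 SD downwards. On the upper side Hars2 had 0.11 from 200 and 243, Yars2 0.11 from 511 and 620, and Ears2 0.07 from 274 and 325. Fars2 had 6770 and 7311, a difference of -0.06, and both Tars2 probes were at -0.05, with 759 and 826 and with 3141 and 3431. Cars2 (-0.09) and Pars2 (-0.02) lay near 0, as did Iars2. Mars2, the methionine enzyme, was well above background in the N2ICD muscle alone, with signals of 20.5 and 33.7, at least 1.18-fold higher. Nars2 was at 6.13 and 6.43, not well above background on either array.

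Iars2, the isoleucine enzyme, shows how far probes of one gene can part. Its gene value of 0.00 is the mean of 0.18 and -0.18. The probe giving 0.18 had signals of 446 and 571 and crosses a splice junction, since its 60 bases span 908 bases at mm9 chr1:187111041-187111948. The probe giving -0.18 had 138 on each array, before scaling, and lies at chr1:187139773-187139832. Both are on the minus strand and are printed whole because the gene's value depends on which is read.
Iars2, position 2980: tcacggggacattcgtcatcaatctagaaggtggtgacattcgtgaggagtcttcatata
Iars2, position 1694: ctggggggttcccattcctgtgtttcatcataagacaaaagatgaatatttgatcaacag
Their gap of 0.37 exceeded 2 SD of spot noise, 0.31. Among the 6 synthetases read by 2 probes it was the only pair of opposite sign, and 34.2% of all 3180 genes with several probes held such a pair. The SD between probes of one gene was 0.25 over those genes. Lars2, Wars2 and Vars2 were the only measured synthetases farther than that from 0.

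The mitochondrial median was 0.14 below the cytosolic median on the log2 scale, as shown in the cumulative plot. Below the cytosolic median lay 11 of the 14 mitochondrial enzymes, and 15 of the 19 cytosolic enzymes above the mitochondrial median, so the sets overlapped widely. The difference ran from -0.14 to -0.11 under the 12 alternative settings. Signal level moved with it. Of the cytosolic enzymes 12 of 19 were in the brightest level group and of the mitochondrial ones 3 of 14, and the median of all genes was -0.06 in the dimmest group and 0.04 in the brightest. The order of the medians was not the same at every level. In the dimmest group the cytosolic value was 0.00, from 1 gene, and the mitochondrial median -0.47 over 2. In the second dimmest group the cytosolic median was -0.09 over 2 genes and the mitochondrial 0.04 over 4, in the next 0.01 over 4 and -0.02 over 5, and in the brightest 0.09 over 12 and -0.06 over 3. After loess, which removes a trend with level between the arrays, the difference was -0.12, with medians of 0.05 and -0.08.

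**Figure D2:**
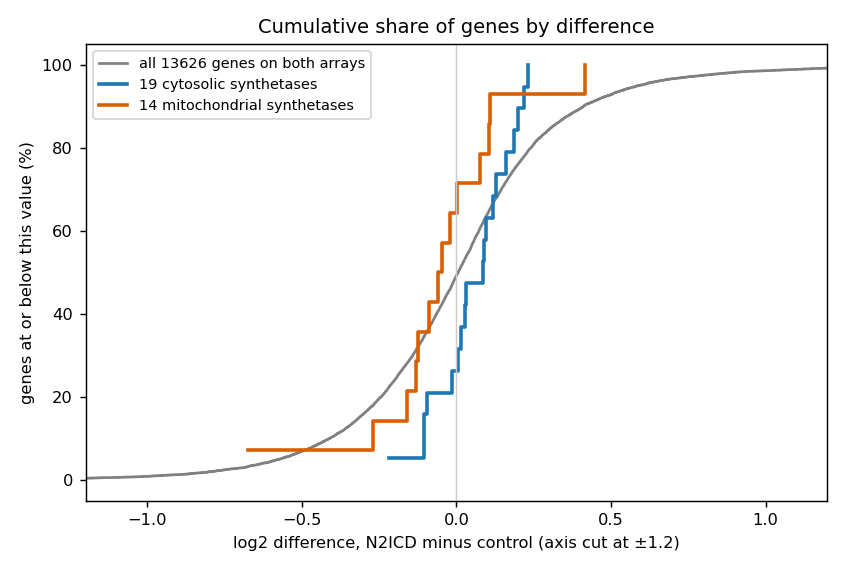
Cumulative share of genes (percent) at or below each log2 difference, N2ICD minus control, for all 13626 genes measured on both arrays (grey), 19 cytosolic (blue) and 14 mitochondrial (orange) synthetases. Both synthetase curves are steeper than the grey one, and the orange curve lies to the left of the blue one over most of its height, with medians of -0.05 and 0.08.

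Pairing enzymes for the same amino acid across compartments reads the same gene values again, so its lean is not separate from that of the medians. Measured on both sides were 14 pairs, covering 13 amino acids, and the mitochondrial enzyme had the lower difference in 10 of them, with a median gap of -0.17. The gap exceeded 2 SD of spot noise in 5 pairs with the mitochondrial enzyme lower and in 1 with it higher. Spot noise holds nothing of the disagreement between different probes, which had an SD of 0.25 within genes. Tryptophan had the widest gap, -0.57 between Wars2 and Wars. Valine came next with -0.39 between Vars2 and Vars, just within 2 SD (0.39). Of the others past 2 SD, alanine had -0.29, threonine -0.27, phenylalanine -0.26 for Fars2 against Farsb, and serine -0.25. Leucine was the exception, with Lars2 0.32 above Lars. In 4 of the pairs past 2 SD (alanine, threonine, serine, and Fars2 with Farsb) the cytosolic member was above 0 and the mitochondrial one below. These signs depend on the scale. On the spike-in scale all 19 cytosolic and 13 of 14 mitochondrial enzymes were above 0, next to 92.4% of all genes. Eprs and Fars2 each enter 2 pairs, so the pairs are not independent. Hars and Hars2, next to each other in the genome, had 0.03 and 0.11.

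**Figure D3:**
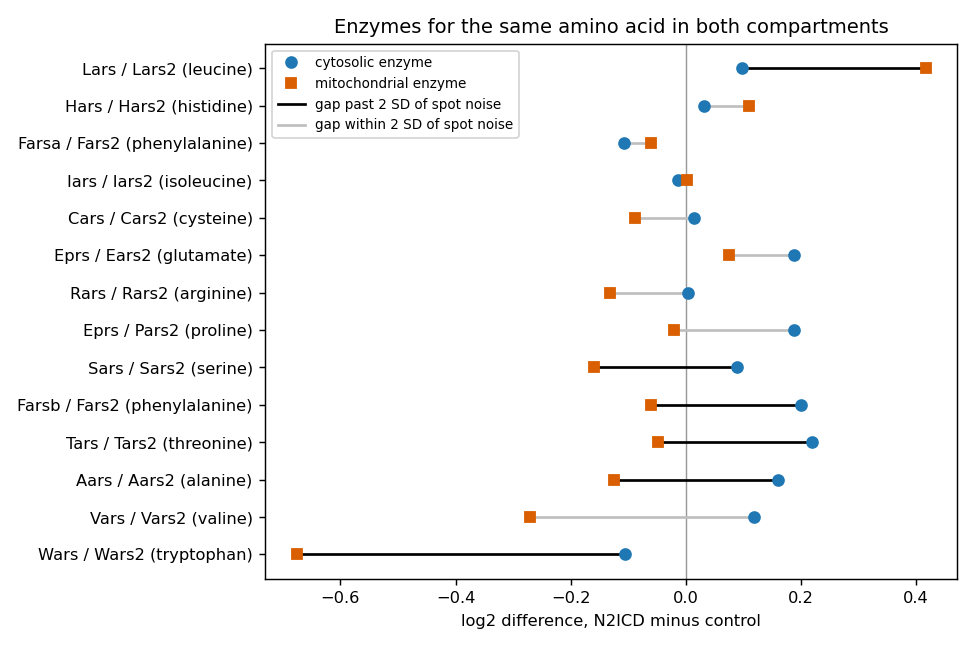
Log2 difference, N2ICD minus control, of the cytosolic (circle) and mitochondrial (square) enzyme for the same amino acid, 14 pairs on 1 array per group. Black lines mark the 6 gaps past 2 SD of spot noise; the mitochondrial square lies left of the circle in 10 pairs, and Wars2 and Lars2 stand at the ends.

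Sequence before the start sites was set beside these values. RefSeq promoter windows (GRCm38.p6, 250 bases before to 50 after the start) were at hand for 13 cytosolic and 14 mitochondrial genes. The core of the amino acid response element, to which Atf4 binds with partner factors, was searched as TGATGNAA on both strands. It was found in 5 of the 13 cytosolic genes (Aars, Gars, Iars, Tars and Yars), in 0 of the 14 mitochondrial genes and in 3.97% of all 32851 windows. The 4 measured carriers had a median difference of 0.09, from -0.01 to 0.22, and the 8 cytosolic genes without a match also 0.09, from -0.22 to 0.23. An NRF1 site, searched as GCGCA and GCGC with any base between, was in 3 cytosolic (Farsb, Kars and Tars) and 2 mitochondrial genes (Iars2 and Mars2) and in 4.60% of windows, and an ETS site, CCGGAAGT, in Farsa, Mars and Rars2 and in 3.89% of windows. The 3 measured cytosolic genes with the highest values, Kars, Tars and Farsb, were the 3 with an NRF1 match. This was noticed after the values were known, and Iars2, the measured mitochondrial gene with such a match, stood at 0.00. Matches are a description of letters in these windows. The 30 bases around those that lie wholly before the start are shown for Gars, as a response element carrier, and for Kars and Tars, as NRF1 carriers, on the gene's strand with the match in capitals.
Gars, bases -30 to -23: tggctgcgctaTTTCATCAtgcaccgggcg
Kars, bases -49 to -40: gcccagcactGCGCCTGCGCagcgagagtc
Tars, bases -169 to -160: ggggaagagtGCGCTTGCGCgcctcactac

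Genes that act around tRNA charging were read in the same way. The 3 measured subunits of the amidotransferase that makes mitochondrial glutamine tRNA had a median of -0.05, from Pet112 at -0.16 to Qrsl1 at 0.05. Proofreading and tRNA release genes had 0.05 over 7 genes, with the hydrolase Ptrh2 lowest at -0.15. For tRNA maturation and export the median was 0.02 over 19 genes, from the 3′ processing enzyme Elac1 at -0.30 to the RNase P subunit Rpp30 at 0.32. No measured gene of these 3 lists passed 1.5-fold. Mitochondrial tRNA processing and modification genes had a median of 0.16 over 13 genes, with 8 above 0. Within them Cdk5rap1, which modifies mitochondrial tRNAs, had signals of 82.4 and 226 for one probe and 635 and 1513 for the other, and was 2.27-fold higher, with differences of 1.28 and 1.08. It was the only one of the 13 past 1.5-fold, and Hsd17b10, an RNase P subunit of mitochondria, was lowest at -0.23. Mitochondrial translation factors lay mostly above 0, with 9 of 10 genes and a median of 0.12, from the elongation factor Tsfm at -0.24 to Guf1 at 0.45. This was opposite in sign to the median of the mitochondrial synthetases, though no member of either set apart from Wars2 passed 1.5-fold. Cytosolic elongation factors had a median of -0.03 over 8 genes, from Eif5a at -0.27 to Eef1b2 at 0.26.

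**Figure D4:**
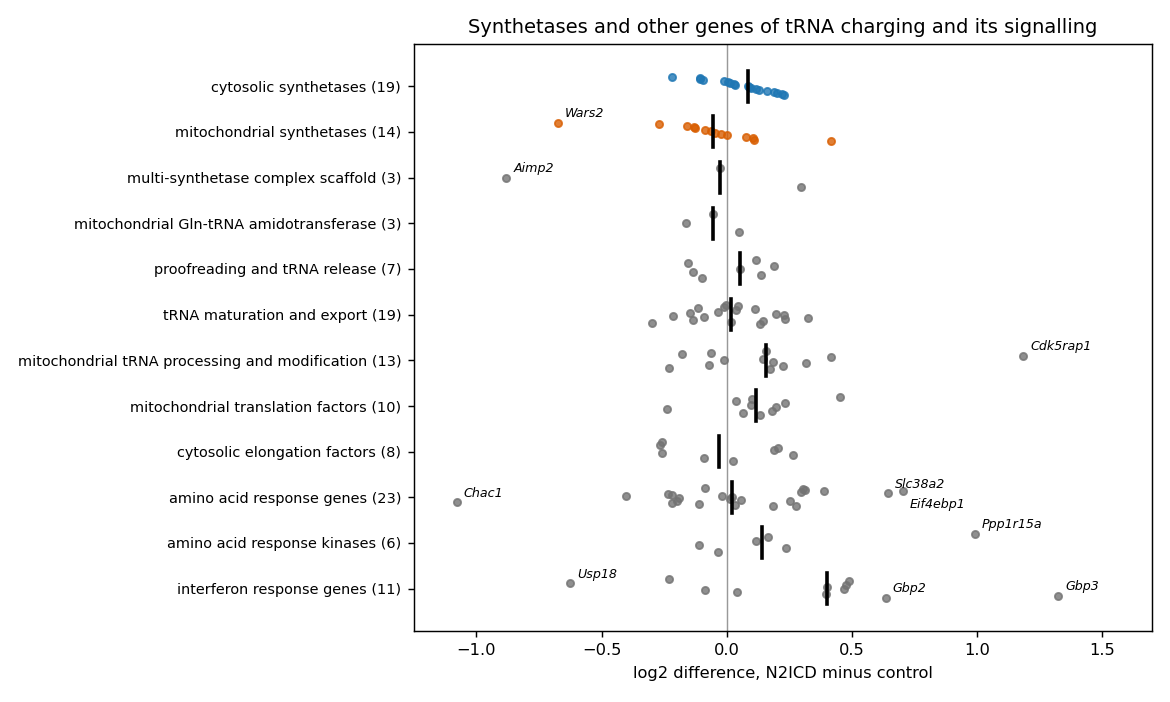
Log2 difference, N2ICD minus control, of each measured gene (points) in the synthetase sets and in 10 other lists of tRNA charging and its signalling, with the number of measured genes in brackets and the list median as a black bar; names mark genes past 1.5-fold. The synthetase points lie between -0.68 and 0.42, while Aimp2, Cdk5rap1, Chac1, Ppp1r15a and Gbp3 lie farther out.

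The amino acid response, which raises cytosolic synthetases when charged tRNA runs short, had genes on both sides, more of them higher among those farther from 0. Of 28 listed genes 23 were measured, with a median of 0.02, 13 above 0 and 10 below. Past 1.2-fold were 7 higher and 2 lower, next to 18.0% and 18.6% of all genes. Past 2 SD of spot noise were 8 higher and 3 lower, next to 25.6% and 22.0% of all genes. The transcription factor Atf4 had signals of 14110 and 18602, a difference of 0.18, and Atf5 had 0.28. Its classic target Asns, asparagine synthetase, had 242 and 279, a difference of 0.03, Ddit3 had -0.11 and Trib3 -0.22. Among the higher ones were the receptor Vldlr (0.39), the transcription factors Cebpb (0.31) and Cebpg (0.31), Ddit4 (0.30) and Sesn2 (0.25). Among the lower ones were Pycr1, of proline synthesis (-0.40), Slc6a9 (-0.24), Slc7a1 (-0.22), Psat1 (-0.20) and Shmt2 (-0.19). Past 1.5-fold were the amino acid transporter Slc38a2 (0.64), the translation repressor Eif4ebp1 (0.70) and, lower, the glutathione-degrading enzyme Chac1 (-1.08), with 27555 and 14698. Eif4ebp1 gave 5080 and 9314, and Slc38a2 1796 and 3160. Of 6 measured genes of the upstream kinases and phosphatase subunits, Ppp1r15a was 1.99-fold higher, with signals of 642 and 1436, and the kinase Eif2ak4, which senses uncharged tRNA, had -0.11. The interferon list, which bears on Wars, had a median of 0.40 over 11 of 16 genes, with 8 above 0. Gbp3 (1.32) and Gbp2 (0.63) were past 1.5-fold higher and Usp18 (-0.63) lower, while Wars itself stood at -0.11.

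Markers of other cells in the muscle were read beside these sets, as medians of the scaled log2 differences and as sums of signals before scaling. The fibroblast list (9 of 9 on both arrays) had a median of -0.17 and summed signals of 101152 in control and 92505 in N2ICD. Macrophage and leukocyte markers (8 of 11, with 10 of the names on the array) had -0.33, with sums of 6140 and 6169. To these Itgam gave 3263 and 3972, though its scaled difference was -0.25. The defining leukocyte marker Ptprc was not well above background in either muscle. Endothelial markers (8 of 8) had -0.22, with sums of 11006 and 10314. Satellite cell markers (5 of 7) had 0.73, with sums of 10551 and 30548. To these the laminin receptor Itga7, which fibres make as well, gave 8493 and 26853. The list was uneven, with Itga7 at 1.49, Sdc4 at 0.86, Cdh15 at 0.73, Pax7 at 0.14 (spot noise SD 0.25) and Vcam1 at -0.31. Myf5 and Calcr were not well above background in either muscle. Their part in the synthetase values was not tested.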

How the data were processed

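Total RNA was labelled with Cy3 and hybridised to 1 array per sample, per the labels' protocols. The authors' scanner files hold a processed intensity per spot (per the file headers, Agilent Feature Extraction 10.10.1.1, which subtracts background and spatial trend; arrays were not set to one scale). For each probe the authors' deposited table gives a fold (ratio), an intensity and a normalized log2 value; its making was not stated in the labels. Per the file headers the probes' build is mm9.

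Log2 processed signals were reduced by each array's 75th percentile over non-control spots. Control spots and 215 outlier spots were left out, which left 55672 probes, and a gene was the mean of those of its probes that were well above background in both muscles. Bounds set the brighter value against the lowest value well above background, or the dim probe's own if that was higher. Genes kept their names in the files. The members, gene lists and alternatives were chosen with earlier results of these data known. The motifs and the probes shown were chosen after the values were seen. Named genes were each synthetase, the 2 outermost genes of each list and any gene past 1.5-fold; other genes of the amino acid response list and the cell markers were named after their values were seen. Some items that this rule covers are not reported here. Groups of 1 array allow no test, and the number of arrays limits the precision. The gene summary was tested on simulated data. Alternatives (normexp with offset 50, quantile, loess) used limma 3.58.1 in R 4.3.3, and the rest used pandas 2.3.3 under Python 3.11.15.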

Additional observations from a re-analysis of the deposited data

How the results depend on the processing

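No paired analysis was possible because each group has 1 array. The cytosolic median ran from 0.02 (quantile normalization) to 0.15 (median scaling), and the mitochondrial median from -0.09 to 0.01, under 11 of the 12 settings. The exception was the scale set by 7 spike-in probes, which moved the median of all genes to 0.48 and gave 0.56 and 0.42, with 32 of 33 synthetases above 0 and 9 past 1.5-fold upwards. On that scale 92.4% of all genes were above 0, and all genes past 1.5-fold split into 4771 higher and 100 lower, against 689 and 656 in the main setting; median scaling gave 907 and 485, normexp 357 and 231, no filter 2194 and 2440, and probes above background on at least 1 array 1037 and 1032. The number past 1.5-fold was 0 after normexp background correction and 2 with no filter on dim probes; at 1.2-fold it was 3 and at 2-fold 0. Of 396 recomputed gene values 66 moved by more than their spot noise, 33 of them on the spike-in scale. In the authors' deposited table, Wars2 was 1.58-fold lower and Lars2 1.35-fold higher. Dim probes (Wars2, Vars2, Rars) have the widest noise.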
